A study of Mus musculus with 14 samples.

Results

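The genes described here make, sense and export cholesterol: Hmgcs1, Fdps, Fdft1, Sqle and Lss of the synthesis pathway, the feedback regulator Insig1, and the efflux transporters Abca1 and Abcg1. They were chosen by name, 8 of 40298 mouse gene starts that could be placed, and each was looked up in 7 lists of H3K4me3 peaks from mouse bone marrow LSK cells. LSK cells lack lineage markers and carry Sca-1 and c-Kit, and hold the blood stem and progenitor cells. Male C57BL/6J mice, 3 to 4 weeks old at the start, were fed a high-fat diet (HFD, 60% of kcal from fat) or a low-fat diet (LFD, 10% of kcal from fat) for 16 to 20 weeks. Sorted LSK cells, 10000 per assay, were profiled by CUT&Tag, in which an antibody to H3K4me3 directs a transposase to cut the chromatin at the mark. There were 3 HFD-LSK libraries and 4 LFD-LSK libraries, and 7 IgG control libraries, which had no peak list and were not analysed here. Whether each library came from a single mouse or from several is not stated, so the p-values measure only the spread between these libraries.

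Cholesterol is built from acetyl-CoA through the mevalonate pathway, whose enzymes are switched on together by the transcription factor SREBP2 when sterols run low. INSIG proteins hold SREBP2 and its escort in the endoplasmic reticulum when sterols are plentiful, and cells take cholesterol in through lipoprotein receptors. The liver X receptors (LXR) respond to surplus sterol and switch on ABCA1 and ABCG1, which load cholesterol onto apolipoprotein A-I and HDL. In blood stem and progenitor cells, loss of these exporters is known to raise proliferation and myeloid output. H3K4me3 sits over the starts of genes that are active or ready for use, so a peak there marks the promoter and is not a measure of transcript or protein.

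A gene was called in a list when a peak lay within 1 kb of its start, and the peak was placed by its rank, 1 being the highest fold over background in that list and ties sharing their mean rank. Rank was used because fold depends on each library's own background. The lists held 9186 to 13094 peaks in HFD-LSK and 6921 to 10572 in LFD-LSK, and their median widths ran from 757 to 1198 bp and from 525 to 961 bp. The fewest fragments at the summit of any listed peak ran from 4 to 21 across the lists. No 2 of the 7 lists were identical. Of 8 stem and progenitor markers, 7 were called in at least 1 list and Kit, Cd34, Gata2 and Meis1 in all 7, while Ly6a, which encodes the sorted surface marker Sca-1, had no peak at its start in any list. Of 14 mature-cell markers, 13 had no peak at their start in any list.

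Of the 8 cholesterol genes, 7 were called in at least 1 list and 4 (Hmgcs1, Sqle, Insig1 and Abcg1) in all 7. Over all protein-coding gene starts, 54.6% were called in at least 1 list and 21.5% in all 7 (31.0% and 11.9% over all gene starts). Among gene starts called anywhere, 38.4% were called in all 7. The gene without a call was Fdft1. In HFD-LSK the genes had 20 of 24 possible calls and in LFD-LSK 24 of 32, and over all protein-coding gene starts the lists called 46.5% and 38.5% of the possible (26.2% and 21.5% over all gene starts). No cholesterol gene was called in every list of one diet and in no list of the other. That pattern, the only one to reach an exact p under 0.05 here (Fisher's exact test, two-sided, p = 0.0286), was shown by 0.288% of the 12503 gene starts called anywhere with HFD-LSK as the called diet, and by 0% with LFD-LSK.

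To show what lies at these starts, the sequence upstream of 3 of them is given, from RefSeq on GRCm38.p6, ending at the base before the gene start. RefSeq sequences were at hand for 4 of the 8 genes (Hmgcs1, Lss, Insig1 and Abca1). Capitals mark CCAAT boxes (CCAAT or its reverse ATTGG), the core of the sterol regulatory element that SREBP binds (TCACNCCAC) and the E-box (CACGTG), searched on both strands, and none of the capital stretches overlap.
Hmgcs1, chr13:119690101-119690350, plus strand: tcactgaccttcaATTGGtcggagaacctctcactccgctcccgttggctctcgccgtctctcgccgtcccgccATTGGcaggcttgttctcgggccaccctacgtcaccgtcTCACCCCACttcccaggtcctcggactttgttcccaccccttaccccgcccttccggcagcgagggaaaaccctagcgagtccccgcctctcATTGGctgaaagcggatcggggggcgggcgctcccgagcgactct
Insig1, chr5:28071162-28071411, plus strand: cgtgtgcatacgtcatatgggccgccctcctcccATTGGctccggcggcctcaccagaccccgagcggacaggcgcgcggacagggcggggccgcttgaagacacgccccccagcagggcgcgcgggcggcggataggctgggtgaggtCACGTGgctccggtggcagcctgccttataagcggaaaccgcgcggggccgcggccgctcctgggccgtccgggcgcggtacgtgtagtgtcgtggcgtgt
Abca1, chr4:53159989-53160145, minus strand: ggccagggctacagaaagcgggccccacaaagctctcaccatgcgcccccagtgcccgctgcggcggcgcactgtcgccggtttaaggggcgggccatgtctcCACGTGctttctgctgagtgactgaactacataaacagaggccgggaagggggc

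The sterol regulatory element core occurred in Hmgcs1 alone among the 4 genes, at positions -137 to -129 from the start, and in 1.05% of 32851 RefSeq promoters searched over the same 250 bases. An LXR-type repeat, 2 copies of GGTNA with 5 bases between them, occurred in 0.621% of those promoters and among the 4 genes in Abca1 alone. It lay 26 to 40 bases downstream of the Abca1 start used here, which is the outermost RefSeq start, 93 bases upstream of the start in the promoter table. The E-box was found in Insig1 and Abca1 and in 6.02% of promoters. CCAAT boxes were common, in 33.8% of promoters, and were found in Hmgcs1, Insig1 and Lss. A match of letters does not show that a factor was bound.

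Hmgcs1 (Entrez 208715, chromosome 13, start at 119690351, plus strand) encodes the cytosolic synthase that makes HMG-CoA, the substrate of the rate-limiting step. Its peak ranked 830.5, 1074.5 and 5544.5 in the 3 HFD-LSK lists and 318.5, 390, 4952 and 1431 in the 4 LFD-LSK lists. In 4 of the 7 lists, both diets included, this was within the top 10% of the peaks, and in HFD-LSK replicate 3 and LFD-LSK replicate 3 the peak was near the middle of the list, at 46.3% and 47.8%. Mean rank was 2483 ± 2654 (SD, n = 3) in HFD-LSK and 1773 ± 2180 (SD, n = 4) in LFD-LSK, a difference of 710.3 places that was smaller than either spread (exact permutation test over the 35 ways to assign the diet labels, two-sided, p = 0.543, adjusted p = 0.949 over 4797 gene starts). The peak was 940, 1327 and 610 bp wide in HFD-LSK and 783, 1183, 580 and 715 bp in LFD-LSK, with overlapping groups (exact p = 0.543, adjusted p = 0.777). All 7 summits lay downstream of the start, by 157 to 273 bases. The upstream edge differed more, and the peak held the whole sterol regulatory element core in 4 of 7 lists.

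Fdps (Entrez 110196, chromosome 3, start at 89101967, minus strand) encodes farnesyl diphosphate synthase, which supplies both sterols and protein prenylation. It was called in 6 of 7 lists and was missed in LFD-LSK replicate 4, the shortest list. Its rank was 9022, 5233.5 and 5679 in HFD-LSK and 5038.5, 7267 and 5290 in the 3 LFD-LSK lists with a peak. The 9022 in HFD-LSK replicate 1 put it at 98.2% of that list, so this peak was close to not being listed. Its widths were 288, 873 and 610 bp in HFD-LSK and 517, 576 and 427 bp in LFD-LSK, and in each of the 6 lists this was narrower than the list's median, at 0.332 to 0.806 of it.

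Fdft1 (Entrez 14137, chromosome 14, start at 63181687, minus strand) encodes squalene synthase, the first enzyme committed to sterols. No list had a peak within 1 kb of this start. A peak did lie inside the gene in 3 lists, with its summit 3556, 3483 and 3502 bases downstream of the start (HFD-LSK replicate 1, HFD-LSK replicate 2 and LFD-LSK replicate 4, in that order). The RefSeq start is the outermost one, 36537 bases from the 3′ end of the gene, and the 3 peaks lay 32512 to 33406 bases from that end. In the GENCODE annotation of the later build GRCm39, 12 of 20 Fdft1 transcripts start 33253 bases from the gene's 3′ end. Positions were not converted between the builds, so whether these peaks sit at that start was not tested. Further downstream, with summits 16950 and 16987 bases from the start, HFD-LSK replicate 3 and LFD-LSK replicate 3 had another peak.

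Sqle (Entrez 20775, chromosome 15, start at 59315092, plus strand) encodes squalene epoxidase, the second control point of the pathway. Its peak ranked 4797, 6629 and 2115 in HFD-LSK and 1896, 9119, 8672.5 and 5060.5 in LFD-LSK. The LFD-LSK lists held both the nearest and the farthest of these from the top, and the groups overlapped. Mean rank was 4514 ± 2270 (SD, n = 3) in HFD-LSK and 6187 ± 3389 (SD, n = 4) in LFD-LSK (exact permutation p = 0.514, adjusted p = 0.947). Widths were 790, 1398 and 857 bp against 436, 815, 961 and 427 bp (exact p = 0.257, adjusted p = 0.719). All 7 peaks covered the start.

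Lss (Entrez 16987, chromosome 10, start at 76531565, plus strand) encodes lanosterol synthase, which closes the sterol rings. It was called in 2 of 3 HFD-LSK lists and 3 of 4 LFD-LSK lists, absent from HFD-LSK replicate 3 and LFD-LSK replicate 1. Its ranks were 7938.5 and 11581.5 in HFD-LSK and 5581, 7879.5 and 5650.5 in LFD-LSK, all in the lower part of their lists, at 52.8% to 88.4%. The called HFD-LSK ranks lay farther from the top than the called LFD-LSK ranks, by a margin of only 59 places between the nearest pair, and no test was made on 5 lists. Placing each uncalled list midway down the ranks below its last peak gave a difference of 3405 places, farther from the top in HFD-LSK (exact permutation p = 0.114). Widths of 711 and 632 bp in HFD-LSK and 932, 768 and 263 bp in LFD-LSK were below the list medians in all 5 lists.

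Insig1 (Entrez 231070, chromosome 5, start at 28071412, plus strand), the sterol-sensing brake on SREBP2 and itself an SREBP target, was called in all 7 lists. Its ranks were 3652.5, 2933 and 5267.5 in HFD-LSK and 3689, 9956, 4940 and 1675 in LFD-LSK. LFD-LSK replicate 2 stood at 94.2% of its list and the other 6 lists placed the peak between 22.4% and 49.5%. Mean rank was 3951 ± 1196 (SD, n = 3) against 5065 ± 3527 (SD, n = 4), and did not pass the test (exact permutation p = 0.714, adjusted p = 0.949). The peak was 680, 1295 and 595 bp wide in HFD-LSK and 1154, 1001, 1023 and 1116 bp in LFD-LSK (exact p = 0.314, adjusted p = 0.719). Divided by the list median, the widths were 0.783, 1.08 and 0.786 in HFD-LSK and 1.56, 1.04, 1.27 and 2.13 in LFD-LSK, which overlapped through a single pair of lists (exact p = 0.114). Every summit lay before the start, between positions -254 and -11, and all 250 printed bases with the E-box were inside the peak in 7 of 7 lists.

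**Figure D1:**
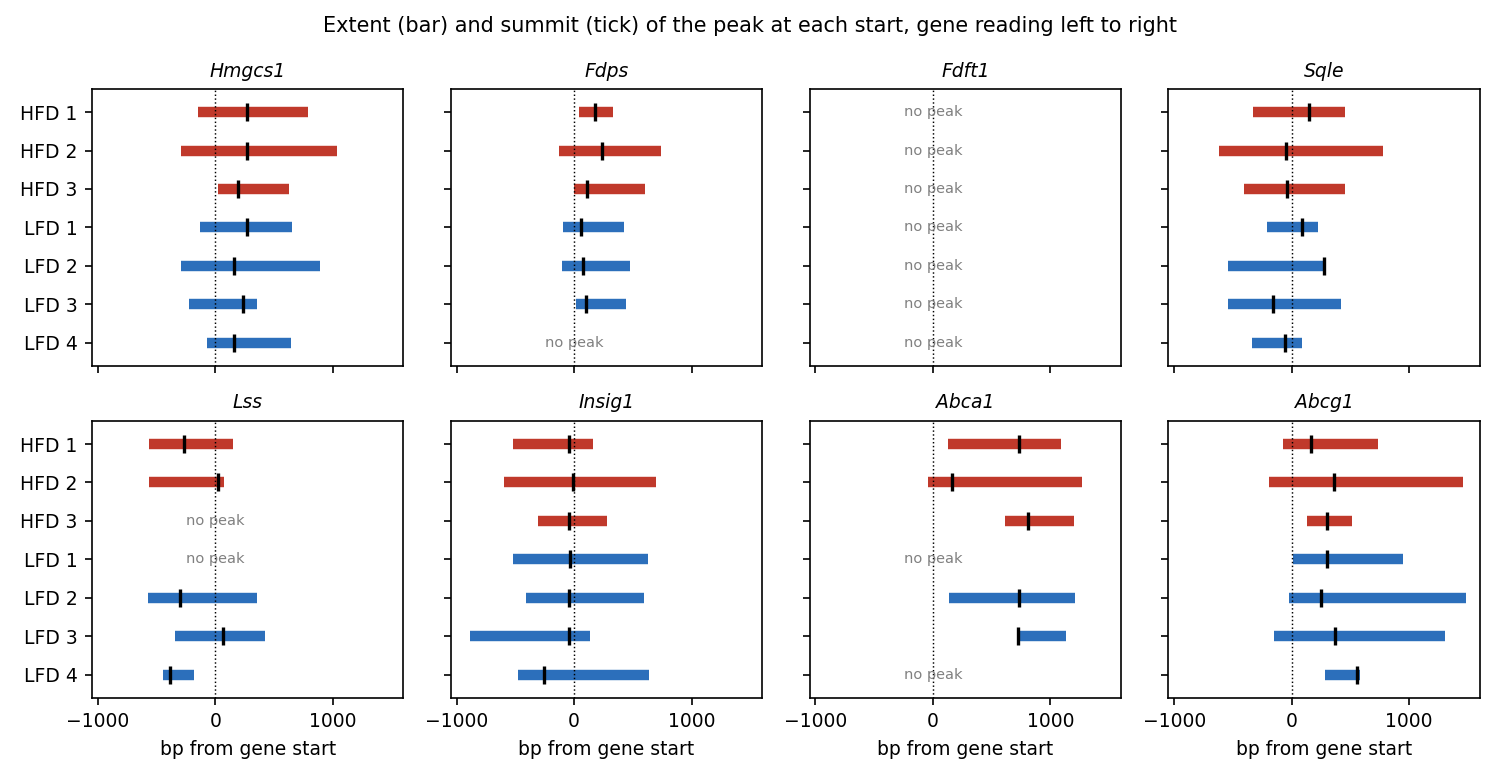
Peak at each gene start in each list, as a bar from its left to its right edge in bp from the start with the gene reading to the right, and a black tick at the summit. Red bars are the 3 HFD-LSK lists and blue bars the 4 LFD-LSK lists; the Abca1 summits lie 160 to 810 bases inside the gene and the Insig1 summits at positions -254 to -11, before it.

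Abca1 (Entrez 11303, chromosome 4, start at 53159988, minus strand) encodes the transporter that passes cholesterol to lipid-poor apolipoprotein A-I. It was called in 3 of 3 HFD-LSK lists and 2 of 4 LFD-LSK lists, a difference that 7 lists could not separate (Fisher's exact test, two-sided, p = 0.429). The 2 lists without it, LFD-LSK replicates 1 and 4, were the shortest, with 7447 and 6921 peaks, and the part of list length in this was not tested. With uncalled lists placed as for Lss, the difference was -3064 places, nearer the top in HFD-LSK (exact permutation p = 0.2). Its ranks were 7585, 7399.5 and 2738 in HFD-LSK and 5507 and 8535 in LFD-LSK, and the peaks were 960, 1312 and 594 bp wide and 1076 and 412 bp wide. The mark lay inside the gene. Summits were 732, 160 and 810 bases downstream of the start in HFD-LSK and 729 and 727 in LFD-LSK, and only the peak of HFD-LSK replicate 2 covered the start or the LXR-type repeat.

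Abcg1 (Entrez 11307, chromosome 17, start at 31057694, plus strand), which exports cholesterol to HDL particles, was the one gene called in all 7 lists whose ranks did not overlap between the diets. They were 5608.5, 7507.5 and 10525 in HFD-LSK and 5354.5, 5309, 3870.5 and 5313 in LFD-LSK. Each HFD-LSK list placed the peak farther from the top than any LFD-LSK list did. Mean rank was 7880 ± 2479 (SD, n = 3) against 4962 ± 727.8 (SD, n = 4), a difference of 2919 places. The two-sided exact permutation p was 0.0286, which is as low as 3 libraries against 4 can reach, and the adjusted p was 0.757. Among the 4797 gene starts called in all 7 lists, 3.50% were farther from the top in HFD-LSK at this unadjusted threshold and 0.271% nearer, and none passed after adjustment, 181 having an unadjusted p under 0.05. The median difference over those starts was 698.5 places in the same direction, and the HFD-LSK lists were longer on average. As a percent of its list, the Abcg1 peak stood at 61.1%, 57.3% and 87.9% in HFD-LSK and at 71.9%, 50.2%, 37.4% and 76.8% in LFD-LSK. On that scale the groups overlapped (difference of 9.69 percentage points, exact permutation p = 0.514). Its widths, 812, 1657 and 384 bp against 933, 1510, 1455 and 295 bp, overlapped as well (exact p = 0.943, adjusted p = 0.969).

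**Figure D2:**
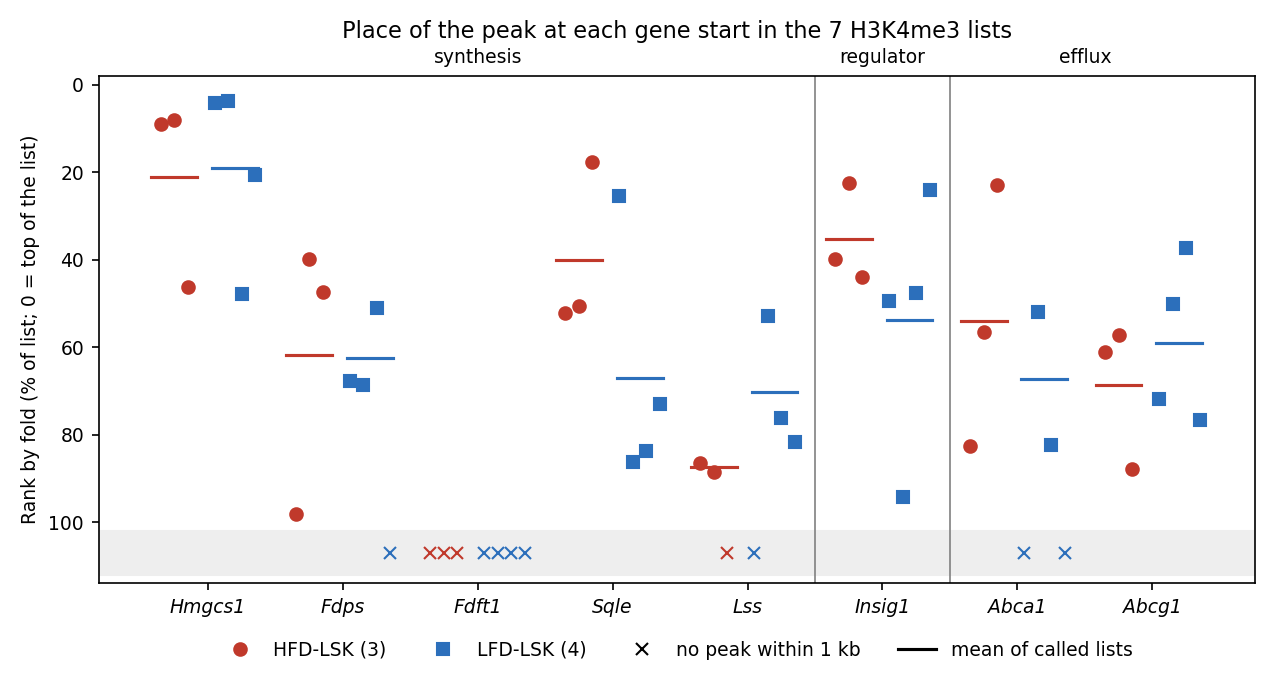
Rank of the peak at each gene start as a percent of its list (vertical axis, 0 at the top of the list), with circles for the 3 HFD-LSK lists, squares for the 4 LFD-LSK lists, lines for the mean of the called lists and crosses in the grey band for lists without a peak. Hmgcs1 lies nearest the top, at 3.69% to 47.8%, and no gene called in all 7 lists separates the diets on this scale. The called Lss peaks lie at 86.4% and 88.4% in HFD-LSK and 52.8% to 81.6% in LFD-LSK. With 1 list of each diet uncalled, no test was made on these 5 lists, and how many gene starts separate in this way was not counted.

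Ordered by mean place over the lists that called them, the genes ran from Hmgcs1 (20.003% of the list) through Insig1 (46.0%), Sqle (55.6%), Abca1 (59.3%), Fdps (62.2%) and Abcg1 (63.2%) to Lss (77.1%). Only the last step held in every list, Abcg1 standing nearer the top than Lss in 7 of 7 with a missing peak counted as lower. Hmgcs1 stood above Insig1 in 5 of 7 lists, Insig1 above Sqle in 4, Sqle above Abca1 in 5, Abca1 above Fdps in 3 of 6, and Fdps above Abcg1 in 3 of 7. The ranges of every neighbouring pair overlapped. Over all gene starts called anywhere the median of this mean place was 49.3%. By rank over the 7 lists, the gene start most like Hmgcs1, the member nearest the top, was Tmbim6 with a mean absolute difference of 368.6 places, and the one most like Abcg1, the farthest from the top of those called in all 7, was Tob2 with 751.7 places. No other gene start lay inside the merged peak of any of the 7 genes that had one.

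Synthesis and efflux genes took overlapping places, and which group lay nearer the top depended on how they were compared. The median rank of the called synthesis genes was 6368, 5931 and 5545 in HFD-LSK and 1896, 6424, 6585 and 5061 in LFD-LSK. For the efflux genes it was 6597, 7454 and 6632 in HFD-LSK and 5355, 5408, 6203 and 5313 in LFD-LSK. Over the 10 pairs of a synthesis and an efflux gene, the synthesis gene stood nearer the top in 4, 6 and 4 pairs in HFD-LSK and in 6, 2, 3 and 5 pairs in LFD-LSK, so that it led in 3 of 7 lists and trailed in 4. Fdft1, without a peak at its start, loses each pair with a called efflux gene, and without it synthesis led in 3 lists, tied in 2 and trailed in 2. By the medians above synthesis was nearer the top in 5 of 7. This is a description over few genes and carries no test. Median widths in LFD-LSK replicates 1 to 3 were 517, 873.5 and 674 bp for synthesis against 933, 1293 and 933.5 bp for efflux, while in LFD-LSK replicate 4 they were 427 and 295 bp. In HFD-LSK the pairs of medians were 750.5 and 886 bp, 1100 and 1484.5 bp, and 610 and 489 bp.

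**Figure D3:**
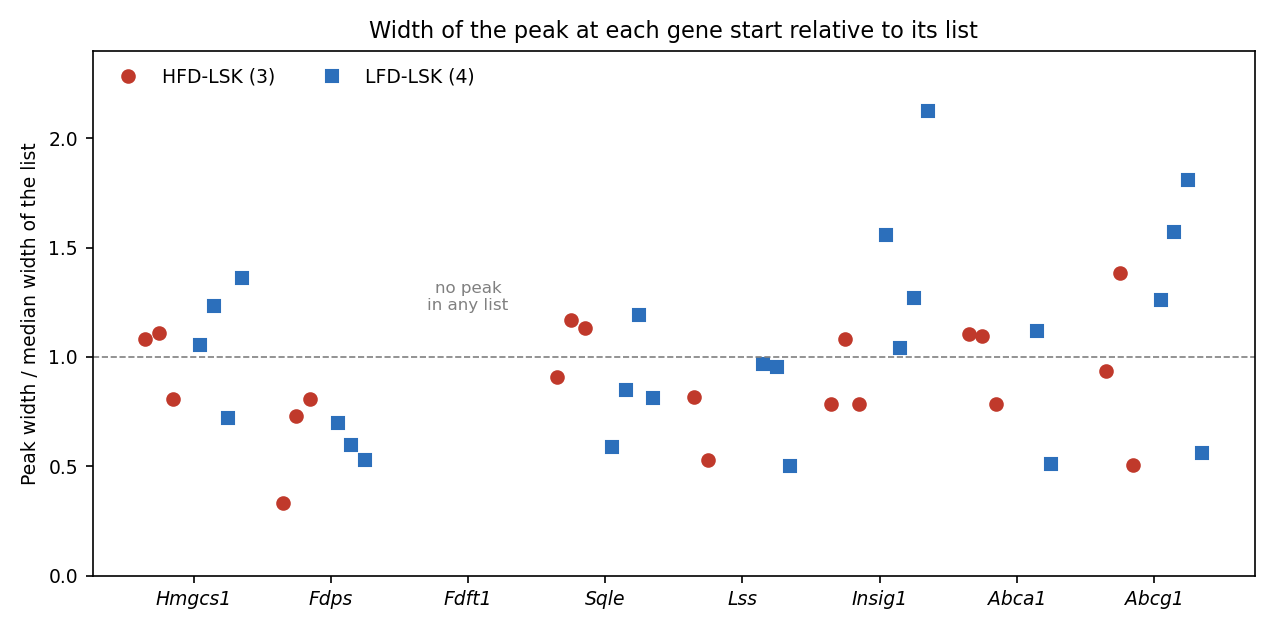
Width of the peak at each gene start divided by the median width of all peaks in its list (vertical axis, dashed line at 1), with circles for HFD-LSK and squares for LFD-LSK. Fdps and Lss lie below 1 in every list that called them, and Insig1 in LFD-LSK lies between 1.04 and 2.13.

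The 8 genes include no uptake gene, so uptake was read from 36 further cholesterol genes in 5 groups. Of these 36, 31 were called in at least 1 list, 9 in all 7 and 5 in none (Pmvk, Insig2, Abcg5, Abcg8 and Soat2). Over all protein-coding gene starts, 54.6% were called in at least 1 list and 21.5% in all 7. None differed between the diets in calls or in rank at an unadjusted exact p under 0.05. The 36 genes had 74.1% of the possible calls in HFD-LSK and 63.2% in LFD-LSK, beside 46.5% and 38.5% over all protein-coding gene starts.

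In the uptake and lysosomal release group all 9 genes were called somewhere, with 26 of 27 possible calls in HFD-LSK and 30 of 36 in LFD-LSK. Those were 96.3% and 83.3% of the possible calls, beside 46.5% and 38.5% over all protein-coding gene starts. Vldlr, a lipoprotein receptor of the LDL receptor family, was the nearest the top of those in all 7 lists, at a mean of 34.6% of the list, and Npc1, which releases cholesterol from lysosomes, the farthest at 48.2%. The Vldlr peak was 2304, 2718 and 2126 bp wide in HFD-LSK and 1331, 1441, 1828 and 657 bp in LFD-LSK. In bp the groups did not overlap (exact permutation p = 0.0571, adjusted p = 0.713), and the share of gene starts with such a gap was not counted. As multiples of the list median the Vldlr widths did overlap (exact permutation p = 0.0857). Of the 36 further genes, only the 9 called in all 7 lists could be tested for width. In bp, 2 of these had an unadjusted exact permutation p under 0.05. Scarb1, the HDL receptor SR-BI, was 1 of the 2 and was singled out after its widths were seen. The Scarb1 peak measured 970, 2171 and 2030 bp in HFD-LSK and 450, 745, 319 and 569 bp in LFD-LSK. Every HFD-LSK width was above every LFD-LSK width, by 1203 bp on average (exact permutation p = 0.0286, adjusted p = 0.713). In bp, 3.52% of the 4797 gene starts in all 7 lists were wider in HFD-LSK at an unadjusted p under 0.05 and 0% narrower. None passed after adjustment. Divided by the list median the Scarb1 widths still did not overlap (exact permutation p = 0.0286). On that scale 116 of the 4797 gene starts had an unadjusted p under 0.05, 73 wider in HFD-LSK and 43 narrower. None of the 4 tested cholesterol genes of the main set was under 0.05 on either scale.

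Of 16 further synthesis genes, 15 were called somewhere and 4 in all 7 lists, beside 54.6% and 21.5% of protein-coding gene starts. Ggps1, which makes geranylgeranyl diphosphate for protein prenylation, stood nearest the top of these 4 at a mean of 16.98%, with ranks of 376, 8 and 5779 in HFD-LSK and 93, 3166.5, 1990 and 1111.5 in LFD-LSK. Its place therefore varied more between lists of one diet than between the diets (exact permutation p = 0.857). Of the feedback regulators Mbtps1, the site-1 protease that cuts SREBP, was called in 7 lists at a mean of 26.9%, and Insig2 in none within 1 kb of its start.

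Further efflux and storage genes had 33.3% of the possible calls in HFD-LSK in each group, and 12.5% and 50.0% in LFD-LSK, beside 46.5% and 38.5% over all protein-coding gene starts. Abcg5 and Abcg8, the sterol exporters of liver and gut, and Soat2, which esterifies cholesterol there, had no peak, and no gene of either group was called in all 7 lists. Soat1, which makes cholesterol esters in most cells and was singled out after its calls were seen, had a peak in 0 of 3 HFD-LSK lists and in 3 of 4 LFD-LSK lists, at ranks of 9931.5, 8672.5 and 3375.5 (Fisher's exact test, two-sided, p = 0.143).

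**Figure D4:**
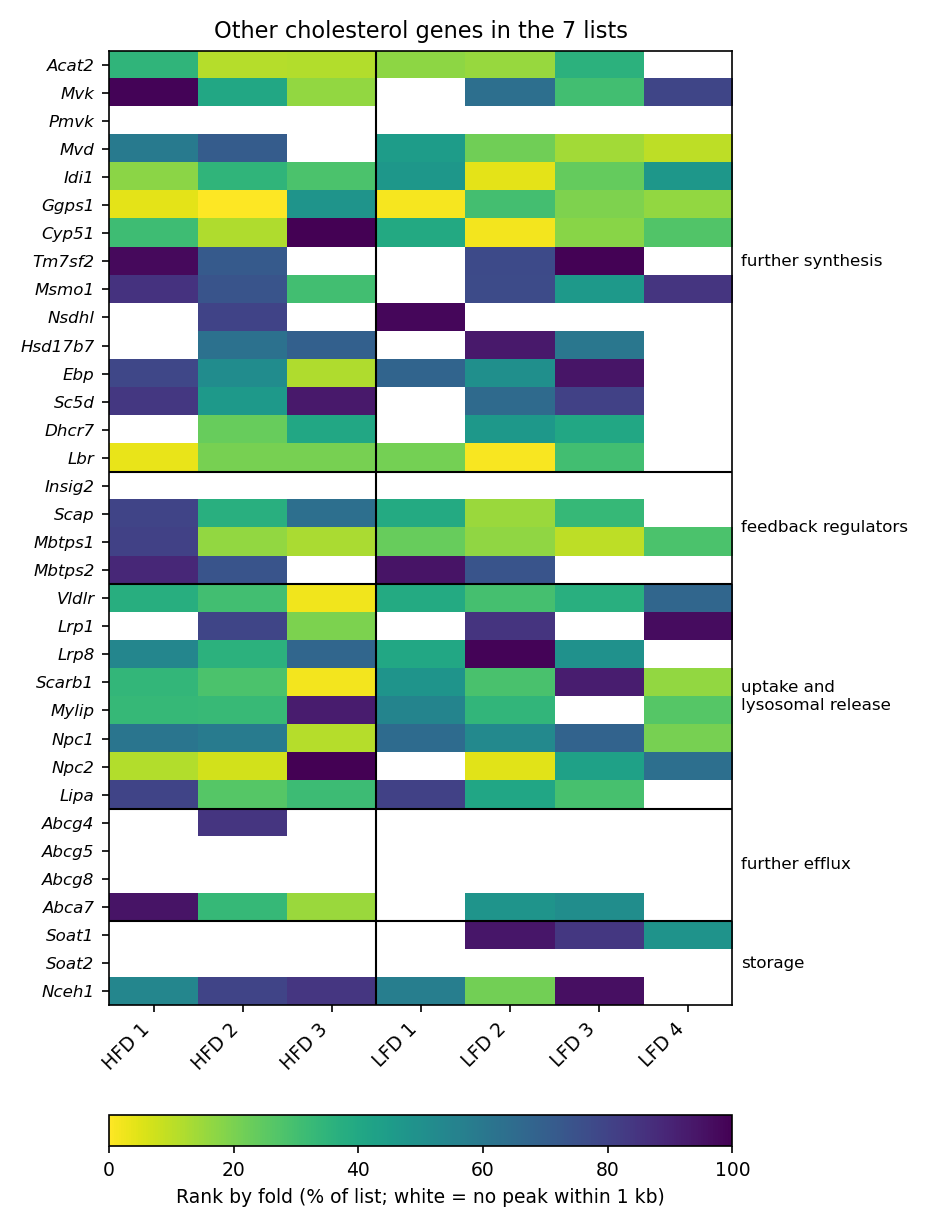
Rank as a percent of the list (color, yellow at the top of the list and dark at its end, white for no peak within 1 kb) for 34 of the further cholesterol genes in 5 groups, with the 3 HFD-LSK lists left of the line and the 4 LFD-LSK lists right of it. The 8 uptake and lysosomal release genes drawn are called in most lists, and 5 genes are white throughout.

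The depth behind single peaks was low. At the member peaks the summit held 23 to 84 fragments for Hmgcs1, 8 to 41 for Fdps, 12 to 61 for Sqle, 14 to 27 for Lss, 16 to 63 for Insig1, 13 to 30 for Abca1 and 15 to 59 for Abcg1. The 8 fragments of Fdps in HFD-LSK replicate 3 carry a 95% Poisson interval of 3.45 to 15.8, for counting error only. A missing call at these depths is not evidence that the mark was absent.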

How the data were processed

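H3K4me3 CUT&Tag peak lists from 7 LSK libraries (3 HFD-LSK, 4 LFD-LSK) were used. Per the labels the authors used Trim Galore, Bowtie2, Picard and MACS2 on GRCm38, whereas the methods name another build and peak caller. The sample titles call the assay CUT&RUN and the protocol CUT&Tag. The deposited lists hold a score, the fold (ratio) over background at the summit, and −log10 p and q values that the authors' caller wrote, 1 list per library. No read counts were used here, so total depth is unknown. Fragments at each summit were solved from the deposited fold and −log10 p, within 0.01 of a whole number, for 100% of peaks. The treatment pileup had been scaled by 0.0958 to 0.913, so a fold served only to order the peaks of its own list.

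Gene starts came from RefSeq on GRCm38.p6, with the strand taken from GENCODE by symbol (40298 of 49993 genes placed). The strongest peak within 1 kb of a start was used. Calls were compared by Fisher's exact test, and ranks and widths by an exact permutation test over 35 label assignments, two-sided, with Benjamini-Hochberg adjustment over 4797 gene starts called in all 7 lists. Named genes were the 8 members and, from the further lists, genes differing at an unadjusted p under 0.05 in calls or rank, genes without a call, the extremes of those called in all 7, and the gene most like the first and last member. A few genes of the further lists are counted but not reported here by name. Members and lists were chosen with earlier results of these data known. Python 3.11.15, scipy 1.17.1 and bedtools 2.31.1 were used, and the statistics were tested on simulated data. Alternatives covered the peak threshold, list length, window, ranking, width scale and each library left out.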

Additional observations from a re-analysis of the deposited data

Results flagged for a closer look

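The rank of Abcg1 in LFD-LSK replicate 3 was flagged as far from the other libraries of its diet. It was 3870.5, and the other 3 LFD-LSK ranks lay between 5309 and 5354.5, so the gap took up 0.969 of the whole range, above Dixon's critical value for 4 samples at the 95% level. It was the only flag among 8 groups of 4 tested (the rank and the width of 4 genes), and chance flags about 1 group in 20. The HFD-LSK group, with 3 libraries, was not tested this way. Without this library the diet difference in the Abcg1 rank was 2555 places (exact permutation p = 0.1, the smallest that 3 against 3 allows).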

How the results depend on the processing

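The count of genes called in all 7 lists, 4, fell to 1 (Hmgcs1) when peaks needed a −log10 q of at least 5, and to 1 (Hmgcs1) when every list was shortened to its 6921 highest-fold peaks. The count of genes with a rank difference at an unadjusted p under 0.05, 1 (Abcg1), became 0 with either of these because Abcg1 was then called in only 4 and 5 lists and could not be tested. It was also 0 with rank by −log10 p (difference 1931, exact permutation p = 0.2), by summit fragments (563.8, p = 0.657), as a percent of the list (9.69 points, p = 0.514) or among consensus peaks called in all 7 lists (431.8, p = 0.371). So it was when any 1 library was left out, where the Abcg1 difference ran from 1596 to 4055 places, and with 6 libraries no exact p can fall below 0.0667. The number of lists led by synthesis over efflux, 3, was 1 by summit fragments, 5 among shared consensus peaks, which hold few of the genes, and, in comparisons chosen after seeing the data, 5 by median rank and 3 without Fdft1.

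Gene by gene, same-numbered libraries of the diets did not deviate together (r = 0.0731, 0.0161 and -0.00981 over 4797 gene starts), and they were not treated as paired. Properties of whole lists, which this correlation does not cover, did follow the number. Replicates 1 to 3 held 9186, 13094 and 11977 peaks in HFD-LSK and 7447, 10572 and 10352 in LFD-LSK. Their median summit fragments were 42, 43 and 15 in HFD-LSK and 48, 33 and 19 in LFD-LSK. A shared batch of same-numbered libraries therefore remains possible and was not tested. The highest r of any HFD-LSK and LFD-LSK pair was 0.0903, for HFD-LSK replicate 3 and LFD-LSK replicate 4. The study's methods mention batch and paired samples, and a cohort was added for LSK cells. The labels do not give the batch or cohort of a library, so the tests took no account of either. A replicate block over the 3 numbers gave an Abcg1 difference of 3036 places (exact sign-flip p = 0.25, the smallest possible) and 0 genes under 0.05.

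Directions that turned all belonged to differences that had not passed a test. The Hmgcs1 rank difference was -588.2 by −log10 p and -515.9 by summit fragments, and leaving out 1 library moved it from -820.4 (without HFD-LSK replicate 3) to 1770. Its width difference was -0.0937 as a multiple of the list median, and ran from -40.25 bp (without HFD-LSK replicate 2) to 318.25 bp. By summit fragments the rank difference was 895.8 for Sqle and 1377 for Insig1. With 1 library left out that of Insig1 ran from -2244 to 516.3 (without LFD-LSK replicate 2), and the Abcg1 width difference from -450.25 to 186.25 bp, being above 0 without HFD-LSK replicate 3, LFD-LSK replicate 2 (56.7 bp) or LFD-LSK replicate 3 (38.3 bp). The cause was not tested.

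Fdft1 was called in 3 lists, and Insig2 in 6, with a window reaching 5 kb downstream, chosen after seeing the data, and 7.21% of protein-coding starts without a peak gained one. Widening the window to 3 kb or requiring the summit within 1 kb changed no call of the 8 genes.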
